A study of Saccharomyces cerevisiae with 61 samples.

Results

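The 10 genes described here are 9 genes of base excision repair or of the direct repair of alkylated DNA in budding yeast and DDI1, the neighbour of MAG1, and each was read by 1 probe of the array. They were taken from the array's probes by symbol. They are MAG1 (YER142C), DDI1 (YER143W), MGT1 (YDL200C), UNG1 (YML021C), OGG1 (YML060W), NTG1 (YAL015C), NTG2 (YOL043C), APN1 (YKL114C), APN2 (YBL019W) and CDC9 (YDL164C). In all, 5592 named genes were measured.

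Base excision repair starts with a DNA glycosylase that removes a damaged base. An AP endonuclease then cuts the strand at the empty site, a polymerase fills the gap and a ligase seals it. Methyl methanesulfonate (MMS) methylates DNA bases. Mag1 is the glycosylase that removes 3-methyladenine, and Mgt1 takes methyl groups off O6-methylguanine directly. MAG1 and DDI1 lie head to head on chromosome V and share an upstream region that is known to drive both genes after DNA damage. DDI1 encodes a ubiquitin-binding shuttle protein of the proteasome, which is not among the enzymes of base excision repair.

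Total RNA of the laboratory strain BY4741 and its derivatives was compared on 61 two-colour arrays after release from mating pheromone arrest. The strains were rad53Δ, which lacks the checkpoint kinase Rad53, wild type, and a pair that the labels call galsicΔP, nrm1Δ and galsicΔP. The labels do not explain galsicΔP, which nrm1Δ cells and their parent share, and nrm1Δ removes the corepressor of the G1/S transcription factor MBF. Extracts of rad53Δ were made at 30 and 75 min from cells in 0.033% MMS, in 0.2 M hydroxyurea (HU, an inhibitor of ribonucleotide reductase) or untreated. Wild-type cells were sampled at 30, 45, 60 and 75 min in the same MMS and HU doses, in 50 µM camptothecin (CPT, a topoisomerase I inhibitor) or untreated. Untreated nrm1Δ cells were sampled at 40 and 100 min and their parent at 0, 40 and 100 min. Each group held 2 RNA extracts, apart from the untreated 0 min groups of rad53Δ and wild type with 1 extract each. No label says that replicates came from separate cultures, so p-values measure only the spread between these samples, which may be technical.

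Values below are differences of RNA level on a log2 scale, ± SE where a test was made, with 2 replicates at each time. The base of the deposited log ratios is not given and was taken as 2. Tests are moderated limma tests on all 6249 features of the array, adjusted by the Benjamini-Hochberg method over all features, and "rose" or "fell" means an adjusted p under 0.05. The comparisons of agents share their untreated extracts. RNA was taken from whole cultures, so a change in the share of cells at a cycle stage and a change in RNA per cell cannot be told apart. The deletion of NRM1 was visible on the arrays, where NRM1 RNA stood at -3.77, -4.58, -3.28 and -5.05 in nrm1Δ cells relative to their parent. No array joined rad53Δ with another strain, so the deletion of RAD53 was not checked.

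The untreated extract of wild-type replicate 2 at 30 min stood apart. At 30 min in wild-type replicate 2 the median of 13 MBF targets, genes transcribed late in G1, was 1.79 in MMS, 1.85 in HU and 1.72 in CPT, each relative to that untreated extract. In replicate 1 the same medians were 0.62, 0.36 and 0.28. The median of 9 genes of the CLB2 cluster, transcribed in G2 and mitosis, lay at -2.47, -2.27 and -2.21 in replicate 2 and between -0.28 and -0.07 in replicate 1. Results that rest on the 30 min extract are given with it and without the 4 arrays of that time and replicate. This omission was chosen after the data were seen. At 45 min in replicate 2 the MBF median relative to its untreated extract was 0.33 in MMS, -0.415 in HU and -0.72 in CPT. In replicate 1 these medians were 1.65, 1.03 and 0.68. Replicate 2 values at 45 min rest on that untreated extract, and no setting left out its arrays alone.

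In MMS, 9 of the 10 genes rose in wild-type cells and 0 fell, against 28% of all features that rose and 30.2% that fell. The median of the 10 genes was 0.38, and that of all features was -0.02. MAG1 and DDI1 rose by far more than the other genes, NTG1, CDC9, OGG1, APN2, APN1, UNG1 and MGT1 rose by 0.20 to 0.56, and the glycosylase gene NTG2 stood at -0.01 ± 0.14 (adjusted p = 0.96; 95% interval -0.30 to 0.28).

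**Figure D1:**
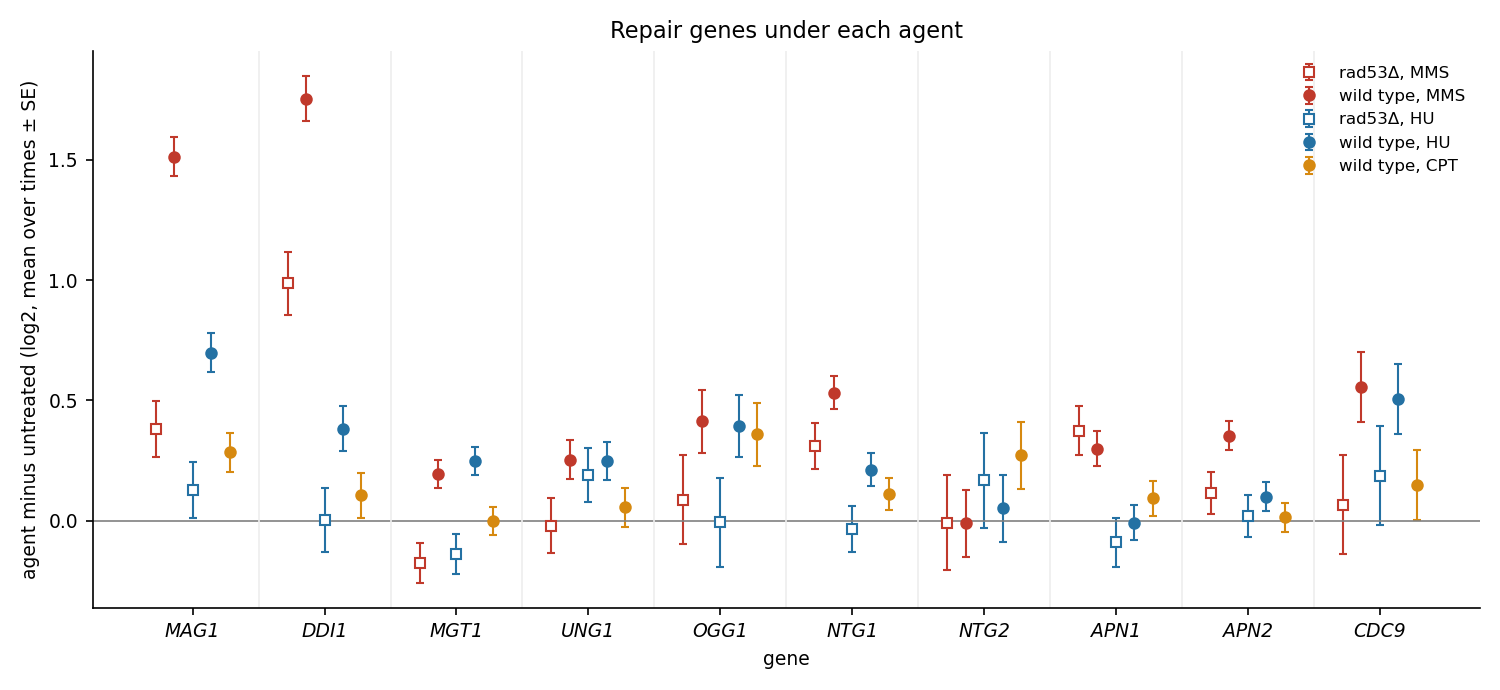
Difference between each agent and untreated cells (log2, y axis) for the 10 genes (x axis), as the mean over 30 and 75 min in rad53Δ (open squares) and over 30, 45, 60 and 75 min in wild type (filled circles), with bars for ± 1 SE. MAG1 and DDI1 in MMS stand at 0.38 and 0.99 in rad53Δ and at 1.51 and 1.75 in wild type, whereas the other wild-type values lie between -0.01 and 0.70.

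MAG1 in MMS stood at 0.48, 1.27, 1.81 and 1.90 relative to untreated cells at 30, 45, 60 and 75 min in replicate 1 and at 0.80, 2.16, 1.64 and 2.04 in replicate 2. All 8 pairs of extracts were higher in MMS, and the 30 min pairs had the lowest values in both replicates. Over the 4 times MAG1 rose 2.85-fold, by 1.51 ± 0.08 (adjusted p = 1.1e-13), and held place 72 among the 6249 features ranked by their difference in MMS.

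DDI1 in MMS stood at 0.93, 1.51, 2.25 and 1.76 in replicate 1 and at 1.13, 2.29, 1.74 and 2.42 in replicate 2. Again all 8 pairs were higher in MMS and the 30 min pairs were lowest. DDI1 rose 3.37-fold, by 1.75 ± 0.09 (adjusted p = 7.6e-14), and held place 42.

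The number of genes that rose in MMS differed between the times. At 30 min the genes that rose in MMS were DDI1 (1.03 ± 0.19), MAG1 (0.64 ± 0.16) and CDC9 (0.98 ± 0.29), 3 of 10 against 6.64% of all features. At 45 min 4 genes rose, MAG1, DDI1, NTG1 and APN2 (14.5% of features). At 60 min 9 genes rose, all but NTG2 (19.2%), and at 75 min MAG1, DDI1, NTG1, APN1 and APN2 rose, 5 of 10 (21.4%). The 45 min call of APN2 ended without replicate 1 (adjusted p = 0.1) or replicate 2 (adjusted p = 0.17), with a slide term (adjusted p = 0.078) and with arrays scaled to equal spread (adjusted p = 0.063), and that of NTG1 without replicate 2 (adjusted p = 0.074). Without replicate 1 the count at 60 min was 3, and without replicate 2 that at 30 min was 1, DDI1. The difference for MAG1 was larger at 60 and 75 min than at 30 and 45 min by 0.67 ± 0.16 (adjusted p = 0.0053) and that for DDI1 by 0.58 ± 0.19 (adjusted p = 0.035), 2 of 10 genes against 9.01% of features. Both calls ended without wild-type replicate 1, at 0.36 (adjusted p = 0.4) and 0.37 (adjusted p = 0.35), and that of DDI1 also ended with arrays scaled to equal spread (0.43, adjusted p = 0.24), in a fit of wild type alone (adjusted p = 0.067) and without the replicate 2 arrays at 30 min (0.62, adjusted p = 0.059). Without the replicate 2 arrays at 30 min the 30 min values of MAG1 and DDI1 came from 1 pair, 0.48 (adjusted p = 0.38) and 0.93 (adjusted p = 0.092).

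**Figure D2:**
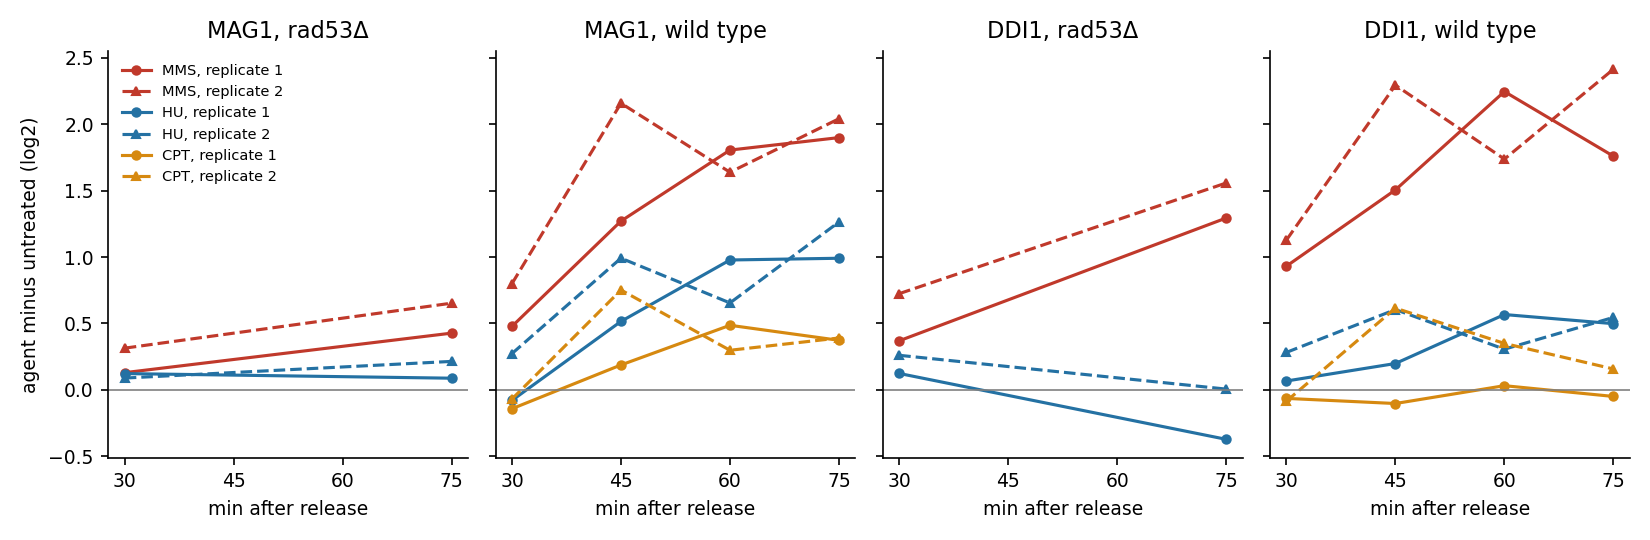
MAG1 and DDI1 relative to untreated cells of the same time and replicate (log2, y axis) against min after release (x axis), with rad53Δ left of wild type for each gene, and 1 pair of extracts per point. At 75 min MAG1 in MMS stands at 0.43 and 0.65 in rad53Δ and at 1.90 and 2.04 in wild type, and DDI1 at 1.29 and 1.56 in rad53Δ and at 1.76 and 2.42 in wild type.

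MGT1, which encodes the methyltransferase, changed little. Its values in MMS were 0.04, 0.37, 0.31 and 0.21 in replicate 1 and -0.21, 0.22, 0.35 and 0.27 in replicate 2, above 0 in 7 of 8 pairs. It rose by 0.20 ± 0.06 (adjusted p = 0.0057), a 1.15-fold difference. The call ended without replicate 1 (0.16, adjusted p = 0.12) and with 1 value per replicate and treatment (adjusted p = 0.099).

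Of the glycosylase genes NTG1 and NTG2, NTG1 rose in MMS and NTG2 did not. NTG1 acts on oxidised pyrimidines, and its protein also cuts at the empty site. It stood at 0.05, 0.42, 0.79 and 1.0 in MMS in replicate 1 and at 0.14, 0.83, 0.35 and 0.69 in replicate 2, above 0 in 8 of 8 pairs. The mean of 0.53 ± 0.07 (adjusted p = 3e-07) stayed past the threshold in all 11 other settings tried for it. NTG2, the paralogue of NTG1, ranged between -0.41 and 0.33 and lay above 0 in 4 of 8 pairs.

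APN1 and APN2 encode the AP endonucleases, of which Apn1 provides most of the activity in yeast. APN2 rose by 0.35 ± 0.06 (adjusted p = 2.3e-05), with 8 of 8 pairs above 0 and values between 0.15 and 0.65. APN1 rose by 0.30 ± 0.07 (adjusted p = 0.001). In replicate 1 it stood at 0.03, -0.15, 0.40 and 0.58, and in replicate 2 at 0.33, 0.40, 0.37 and 0.45, so the replicates differed at 30 and 45 min and overlapped later. Both rises stayed past the threshold in all 11 other settings.

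The values of UNG1, OGG1 and CDC9 lay on both sides of the untreated level. Ung1 removes uracil, Ogg1 removes 8-oxoguanine, and Cdc9 is DNA ligase I, which also joins Okazaki fragments during replication. The values of CDC9 in MMS were -0.03, 0.96, 0.99 and -0.15 in replicate 1 and 1.99, -0.01, 1.06 and -0.35 in replicate 2, so 4 of 8 pairs lay above 0. Both replicates were high at 60 min and below 0 at 75 min, and they disagreed at 30 and 45 min. CDC9 averaged 0.56 ± 0.15 in MMS (adjusted p = 0.0021). Without the replicate 2 arrays at 30 min the mean was 0.30 (adjusted p = 0.023), and the 30 min rise named above turned to -0.03 (adjusted p = 0.98).

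OGG1 averaged 0.41 ± 0.13 in MMS (adjusted p = 0.0089), from 0.24, 0.79, 1.15 and 0.11 in replicate 1 and 1.19, -0.22, 0.45 and -0.40 in replicate 2. UNG1 averaged 0.25 ± 0.08 (adjusted p = 0.0086), from 0.05, 0.35, 0.82 and 0.09 in replicate 1 and 0.57, -0.20, 0.43 and -0.07 in replicate 2. For both genes 6 of 8 pairs lay above 0, and the 60 min pairs were above 0 in both replicates. Neither call held without the replicate 2 arrays at 30 min (OGG1 0.29, adjusted p = 0.082; UNG1 0.19, adjusted p = 0.073). Nor did they hold without replicate 1 (OGG1 0.25, adjusted p = 0.077; UNG1 0.18, adjusted p = 0.17) or in fits to single arrays without the replicate block, where OGG1 stood at 0.26 (adjusted p = 0.12) and UNG1 at 0.18 (adjusted p = 0.1).

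Lists of genes transcribed at set stages of the cell cycle changed in MMS as well. In MMS the MBF median was 0.62, 1.65, 2.52 and 1.08 at 30, 45, 60 and 75 min in replicate 1, and 1.79, 0.33, 1.42 and 0.38 in replicate 2. The CLB2 cluster median was -0.28, -1.05, -1.94 and -1.15 in replicate 1 and -2.47, -0.76, -1.82 and -1.26 in replicate 2. Of 13 MBF targets 12 rose over the 4 times and 0 fell, and of 9 CLB2 cluster genes 9 fell. At 75 min the MBF median lay above 0 in both replicates and CDC9 lay below 0 in both. The 13 targets were split at that time, from -0.82 to 3.03, with 5 higher, 1 lower and 7 not called, and CDC9 lay within their range. The part of both lists in the values of UNG1, OGG1 and CDC9 was not tested.

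**Figure D3:**
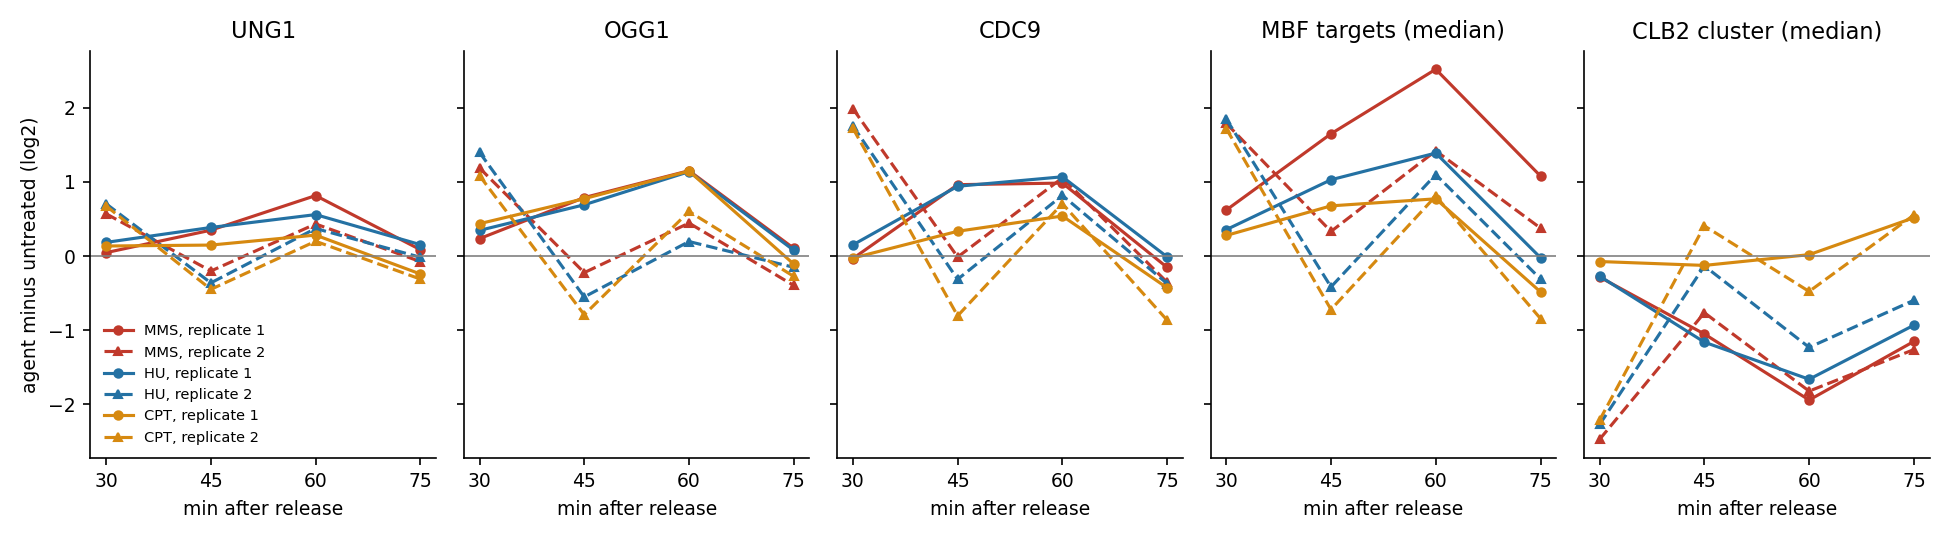
UNG1, OGG1, CDC9 and the medians of 13 MBF targets and 9 CLB2 cluster genes in each agent relative to untreated wild-type cells of the same time and replicate (log2, y axis) against min after release (x axis). In replicate 2 (dashed) CDC9 stands between 1.73 and 1.99 at 30 min in all 3 agents, against -0.03 to 0.15 in replicate 1 (solid), and the MBF and CLB2 medians differ between the replicates at that time as well.

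In HU, 7 of the 10 genes rose and 0 fell, against 15.8% of features that rose and 17.3% that fell. MAG1 in HU stood at -0.08, 0.52, 0.98 and 0.99 in replicate 1 and at 0.27, 0.99, 0.65 and 1.26 in replicate 2, so that 7 of 8 pairs were higher in HU. It rose by 0.70 ± 0.08 (1.62-fold, adjusted p = 5.8e-07). DDI1 rose by 0.38 ± 0.09 (adjusted p = 0.0026), with 8 of 8 pairs above 0 and values between 0.07 and 0.60, and its adjusted p was 0.05 with 1 value per replicate and treatment. MGT1 was above 0 in 8 of 8 pairs and rose by 0.25 ± 0.06 (adjusted p = 0.0018), a call that ended without replicate 1 (0.22, adjusted p = 0.059) and with 1 value per replicate and treatment (adjusted p = 0.089).

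CDC9 rose by 0.51 ± 0.15 in HU (adjusted p = 0.0087), with values from -0.37 to 1.76, and by 0.31 without the replicate 2 arrays at 30 min (adjusted p = 0.043). Of 11 other settings the call for CDC9 ended in 1, with a slide term (0.42, adjusted p = 0.082). OGG1 (0.39 ± 0.13, adjusted p = 0.022), UNG1 (0.25 ± 0.08, adjusted p = 0.018) and NTG1 (0.21 ± 0.07, adjusted p = 0.017) also rose in HU. Without the replicate 2 arrays at 30 min these 3 calls ended, at 0.26 (adjusted p = 0.18), 0.18 (adjusted p = 0.13) and 0.19 (adjusted p = 0.083), as they did without replicate 1 (adjusted p = 0.17, 0.26 and 0.19). The AP endonuclease genes did not pass in HU, APN1 at -0.01 ± 0.07 and APN2 at 0.10 ± 0.06, nor did NTG2 at 0.05 ± 0.14.

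MMS and HU were then set against each other, since both impede replication and only MMS alkylates DNA. Of the 10 genes 5 were higher in MMS than in HU and 0 lower, against 20.5% of features higher and 20.7% lower. DDI1 was 2.58-fold higher (1.37 ± 0.09, adjusted p = 2.2e-11), and its 8 differences ran from 0.85 to 1.87. MAG1 was 1.76-fold higher (0.81 ± 0.08, adjusted p = 2.2e-08), between 0.53 and 1.17. On the 4 arrays of replicate 2 that carried MMS RNA directly against HU RNA, the deposited ratio of MAG1 was 0.60, 1.0, 0.91 and 0.67 at 30, 45, 60 and 75 min.

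The other 3 genes higher in MMS than in HU were NTG1 (0.32 ± 0.07, adjusted p = 0.00056), APN1 (0.31 ± 0.07, adjusted p = 0.0015) and APN2 (0.25 ± 0.06, adjusted p = 0.0018). With 1 value per replicate and treatment APN1 and APN2 no longer passed (adjusted p = 0.063 and 0.078). UNG1 differed by 0.01 ± 0.08 between the agents (95% interval -0.16 to 0.17), OGG1 by 0.02 ± 0.13 (-0.25 to 0.29) and CDC9 by 0.05 ± 0.15 (-0.25 to 0.35). MGT1 stood at -0.05 ± 0.06 (-0.17 to 0.07) and NTG2 at -0.06 ± 0.14 (-0.35 to 0.23). Without replicate 1 NTG2 was lower in MMS than in HU (-0.23, adjusted p = 0.015), and without replicate 2 it stood at 0.11.

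In CPT, 1 of the 10 genes rose, MAG1 by 0.28 ± 0.08 (adjusted p = 0.041), and 0 fell, against 2.48% of features that rose and 3.54% that fell. It stood at -0.14, 0.19, 0.49 and 0.37 in replicate 1 and at -0.07, 0.75, 0.30 and 0.39 in replicate 2, lower at 30 min and higher later in both. The call ended without either replicate (0.34 without replicate 1, adjusted p = 0.19; 0.23 without replicate 2, adjusted p = 0.16) and without the replicate 2 arrays at 30 min (0.27, adjusted p = 0.093). It also ended in a fit of wild type alone (adjusted p = 0.079) and with 1 value per replicate and treatment (adjusted p = 0.41).

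NTG2 in CPT differed between the replicates. It stood at 0.35, 0.11, 0.75 and 1.46 in replicate 1 and at -0.24, 0.06, -0.33 and 0.01 in replicate 2, and the mean of 0.27 ± 0.14 did not pass (adjusted p = 0.23). Replicate 1 alone gave means of 0.67 for NTG2, 0.56 for OGG1, 0.25 for NTG1 and 0.20 for APN1. The means of replicate 2 alone were -0.13, 0.16, -0.03 and -0.01. OGG1 stood at 0.36 ± 0.13 (adjusted p = 0.09), with 0.44, 0.77, 1.15 and -0.11 in replicate 1 and 1.09, -0.79, 0.60 and -0.27 in replicate 2.

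Set against CPT, MMS cells had 8 of the 10 genes higher and 0 lower, against 27.3% and 29.3% of features. DDI1 was 3.13-fold higher (1.65 ± 0.09, adjusted p = 3.6e-13) and MAG1 2.34-fold higher (1.23 ± 0.08, adjusted p = 6.7e-12). NTG1 (0.42 ± 0.07), CDC9 (0.41 ± 0.15), APN2 (0.34 ± 0.06), APN1 (0.21 ± 0.07), UNG1 (0.20 ± 0.08) and MGT1 (0.19 ± 0.06) followed. Of 11 other settings MGT1 did not pass in 4, UNG1 in 6, APN1 in 4 and CDC9 in 1. Without replicate 1 MGT1 stood at 0.12 (adjusted p = 0.26) and UNG1 at 0.15 (adjusted p = 0.28), and without replicate 2 UNG1 stood at 0.24 (adjusted p = 0.068) and APN1 at 0.02 (adjusted p = 0.86). OGG1 stood at 0.05 ± 0.13 and NTG2 at -0.28 ± 0.14 (adjusted p = 0.75 and 0.088), and NTG2 was lower in MMS than in CPT without replicate 2 (-0.66, adjusted p = 4.7e-06) but stood at 0.10 without replicate 1.

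In rad53Δ cells MMS raised 4 of the 10 genes and lowered 0, against 8.59% of features that rose and 4.78% that fell. DDI1 stood at 0.37 and 1.29 at 30 and 75 min in replicate 1 and at 0.72 and 1.56 in replicate 2, and rose 1.98-fold (0.99 ± 0.13, adjusted p = 1.1e-05). MAG1 stood at 0.13 and 0.43 in replicate 1 and at 0.31 and 0.65 in replicate 2, a rise of 0.38 ± 0.12 (adjusted p = 0.029). Both genes were higher at 75 min than at 30 min in both replicates. APN1 rose by 0.37 ± 0.10 (adjusted p = 0.015) and NTG1 by 0.31 ± 0.10 (adjusted p = 0.03), each above 0 in 4 of 4 pairs. Without either rad53Δ replicate the call of DDI1 stood and those of MAG1, NTG1 and APN1 ended, with adjusted p between 0.18 and 0.62, and with arrays scaled to equal spread MAG1 (adjusted p = 0.06) and NTG1 (adjusted p = 0.062) did not pass.

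The response of MAG1 to MMS was smaller in rad53Δ than in wild type by 0.92 ± 0.16 at matched times of 30 and 75 min (adjusted p = 0.0011). This was 1 of the 10 genes lower and 0 higher, against 3.44% of features lower and 3.92% higher. Of the 4 rad53Δ values of MAG1 3 lay below every wild-type value at these times, and the highest, 0.65, lay above the lowest wild-type value, 0.48. The call ended without rad53Δ replicate 1 (-0.82, adjusted p = 0.093) and stood without the wild-type replicate 2 arrays at 30 min (-0.84, adjusted p = 0.016). DDI1 differed by -0.57 ± 0.19 (adjusted p = 0.065; 95% interval -0.96 to -0.19). In 10 of 13 other settings DDI1 did not pass either, among them that without the wild-type replicate 2 arrays at 30 min (-0.52). The 3 settings in which it passed were fits to single arrays without the replicate block (-0.54, adjusted p = 0.019), with a slide term (-0.58, adjusted p = 0.02) and without wild-type replicate 1 (-0.79). Over all settings its values ran from -0.79 to -0.36.

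For APN1 the difference between rad53Δ and wild type in MMS was 0.03 ± 0.15 (95% interval -0.27 to 0.33), and for NTG1 it was -0.16 ± 0.14 (-0.44 to 0.12). CDC9 stood at -0.30 ± 0.29 (-0.90 to 0.30), but at -0.75 without wild-type replicate 1 (adjusted p = 0.008) and at 0.16 without wild-type replicate 2 (adjusted p = 0.58). The remaining 5 genes lay between -0.25 and -0.15, with adjusted p from 0.22 to 0.84. For rad53Δ minus wild type in MMS, 2 of 13 MBF targets were lower and 0 higher (median -0.70), and 3 of 9 CLB2 cluster genes were higher and 0 lower (median 0.95). Their part in these differences was not tested.

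In HU, 0 of the 10 genes passed in rad53Δ in the limma test, and 0 had an unadjusted p under 0.05, against 3.97% of features that rose and 3.18% that fell. MAG1 stood at 0.12 and 0.09 in replicate 1 and at 0.09 and 0.21 in replicate 2. In a fit of rad53Δ alone 2003 of the 6249 features passed. Among them were 3 of the 10 genes, UNG1 (0.19, adjusted p = 0.045), NTG2 (0.17, adjusted p = 0.035) and CDC9 (0.19, adjusted p = 0.048). The response to HU did not differ between rad53Δ and wild type past the threshold for any of the 10 genes (1.41% of features higher and 1.39% lower), although 2 had an unadjusted p under 0.05, MGT1 at -0.37 ± 0.12 (adjusted p = 0.088) and MAG1 at -0.48 ± 0.16 (adjusted p = 0.13). Each passed in only 1 of 13 other settings, the fits to single arrays without the replicate block, MAG1 at -0.51 (adjusted p = 0.0093) and MGT1 at -0.32 (adjusted p = 0.038). Without the wild-type replicate 2 arrays at 30 min MAG1 stood at -0.40 and MGT1 at -0.44.

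MGT1 in HU lay on opposite sides of the untreated level in the strains. At 30 and 75 min it stood at -0.14, -0.34, -0.003 and -0.07 in rad53Δ. In wild type it stood at 0.30, 0.15, 0.04 and 0.45 at these times. The strains did not overlap, but -0.003 and 0.04 lay closer together than the residual SD of single arrays for MGT1, 0.14. The wild-type value of 0.04 rests on the untreated replicate 2 extract at 30 min that stood apart. In MMS the 4 rad53Δ values lay between -0.31 and -0.05 and the wild-type values at the same times were 0.04, 0.21, -0.21 and 0.27, so the strains overlapped. The rad53Δ mean in MMS was -0.17 ± 0.08 (adjusted p = 0.18).

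The course after release could be followed in replicate 1, with 1 extract per time and no test. MAG1 in wild-type cells stood at -0.32, 0.34, 0.73 and 0.83 in MMS at 30, 45, 60 and 75 min, relative to the untreated 0 min extract, and at -0.80, -0.93, -1.08 and -1.07 in untreated cells. MAG1 was therefore at its highest untreated level in pheromone arrest, and in HU it stood at -0.88, -0.41, -0.10 and -0.08, back near the 0 min level at the end. DDI1 lay at 0.64, 1.21, 1.93 and 1.51 in MMS and between -0.32 and -0.25 in untreated cells. NTG1 stood at -0.14, -0.02, 0.13 and 0.13 in MMS and at -0.18, -0.44, -0.67 and -0.87 in untreated cells, so most of its difference of 1.0 at 75 min lay in the untreated level.

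UNG1, OGG1 and CDC9 were highest at 30 min of the 4 times in every treatment of this replicate. CDC9 stood at 1.49, 1.15, 0.78 and 0.46 in MMS, at 1.68, 1.13, 0.86 and 0.60 in HU, at 1.5, 0.53, 0.34 and 0.18 in CPT and at 1.53, 0.19, -0.21 and 0.61 in untreated cells. At 30 min the 4 extracts were alike, and at 45 and 60 min the untreated one was lowest. In untreated cells OGG1 stood at 1.29, 0.12, -0.46 and 0.17 and UNG1 at 0.99, 0.42, -0.05 and 0.34. The MBF median of the same untreated cells was 1.65, 0.59, -0.02 and 0.89.

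**Figure D4:**
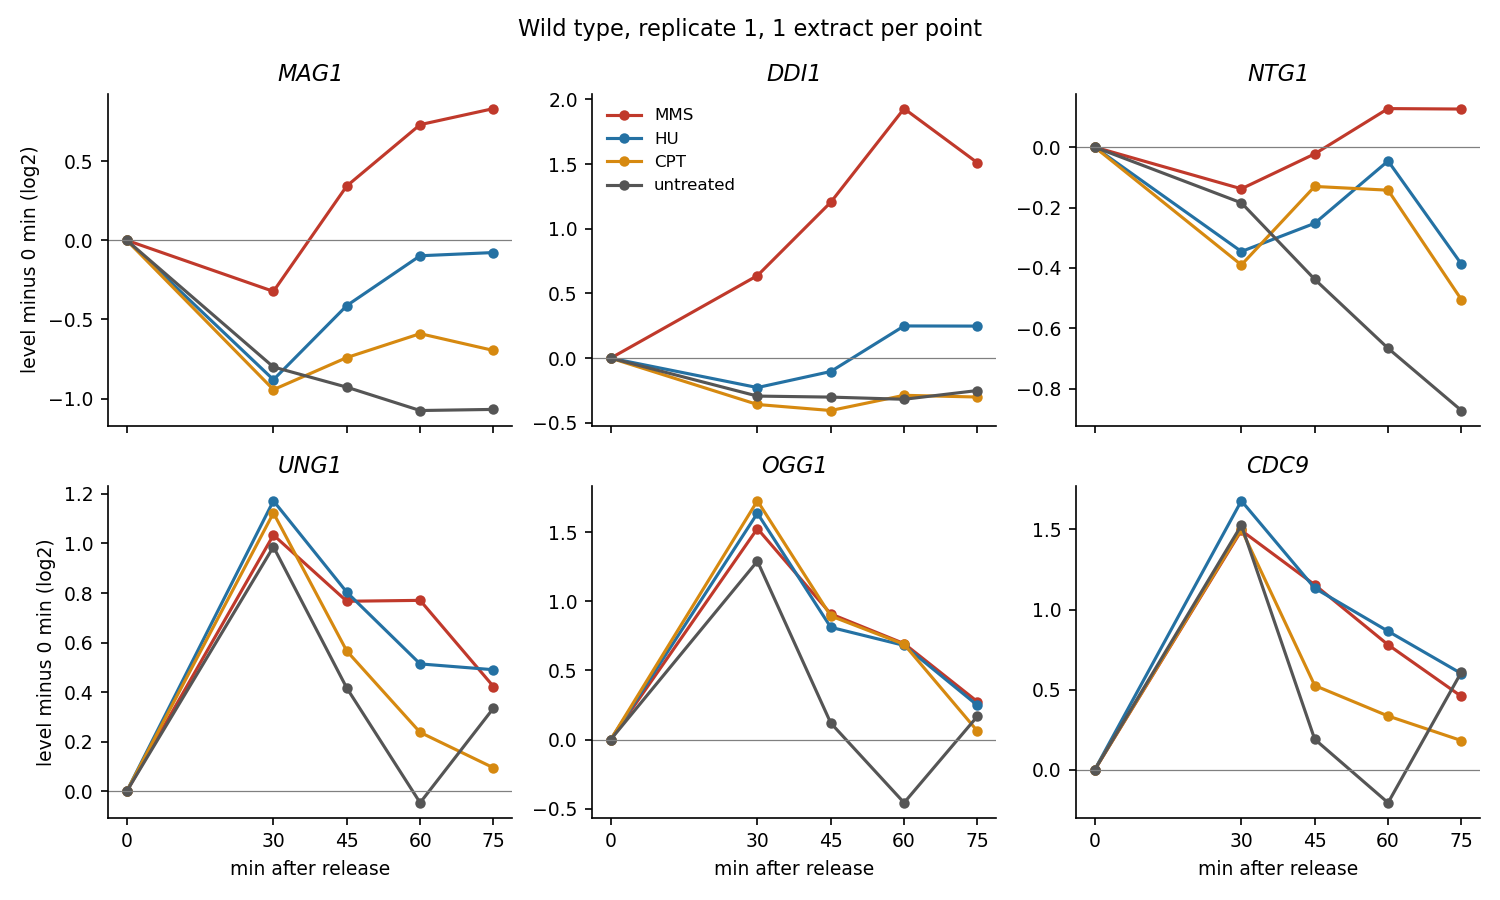
Level of 6 genes in wild-type replicate 1 relative to the untreated 0 min extract (log2, y axis) against min after release (x axis), 1 extract per point, with separate y axes. MAG1 and NTG1 lie below the 0 min level in untreated cells, to -1.07 and -0.87 at 75 min, and UNG1, OGG1 and CDC9 peak at 30 min in all 4 treatments.

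The 0 min level was also compared in the other strains, again without a test. In untreated rad53Δ cells MAG1 stood at -0.52 at 30 min and -0.01 at 75 min, while CDC9 stood at 1.18 and -0.14 and OGG1 at 1.42 and 0.41. In the galsicΔP parent, with 1 extract per time from the first loop, MAG1 stood at -1.70 at 40 min and -1.95 at 100 min relative to the mean of its 0 min extracts, DDI1 at -1.0 and -0.74, and CDC9 at 1.1 and 0.18.

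In nrm1Δ cells, 3 of the 10 genes were higher than in the parent and 1 was lower, against 14.5% of features higher and 17.2% lower. OGG1 stood at 0.74 and 1.04 at 40 and 100 min in the first hybridisation loop and at 1.25 and 0.78 in the second. CDC9 stood at 0.64 and 0.97 and at 0.88 and 0.63, and UNG1 at 0.25 and 0.42 and at 0.88 and 0.35. All 4 differences of each of these genes were above 0. OGG1 rose 1.94-fold (0.95 ± 0.18, adjusted p = 0.00035), CDC9 1.72-fold (0.78 ± 0.21, adjusted p = 0.0051) and UNG1 1.39-fold (0.47 ± 0.11, adjusted p = 0.0024). MGT1 fell by 0.26 ± 0.08 (adjusted p = 0.018), with 4 of 4 differences below 0.

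The other 6 genes did not pass in nrm1Δ, with MAG1 at -0.29 ± 0.12 (adjusted p = 0.061), DDI1 at -0.12 ± 0.13, NTG1 at -0.05 ± 0.10, NTG2 at 0.04 ± 0.20, APN1 at 0.15 ± 0.10 and APN2 at -0.03 ± 0.09. MAG1 passed without the first loop (-0.46, adjusted p = 0.029), in fits to single arrays without the replicate block (-0.39, adjusted p = 0.00027) and with arrays centred on their median (-0.29, adjusted p = 0.049). Of 13 MBF targets 12 were higher in nrm1Δ and 0 lower (median 0.93), and the median of 10 pheromone response genes was -0.63. With arrays scaled to equal spread none of the 4 calls stood, with OGG1 at 0.58 (adjusted p = 0.095), CDC9 at 0.49 (adjusted p = 0.25), UNG1 at 0.31 (adjusted p = 0.16) and MGT1 at -0.19 (adjusted p = 0.21). CDC9 did not pass without the first loop (adjusted p = 0.1) or the second (adjusted p = 0.068), and without the second loop UNG1 (0.33, adjusted p = 0.13) and MGT1 (-0.15, adjusted p = 0.4) did not either.

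**Figure D5:**
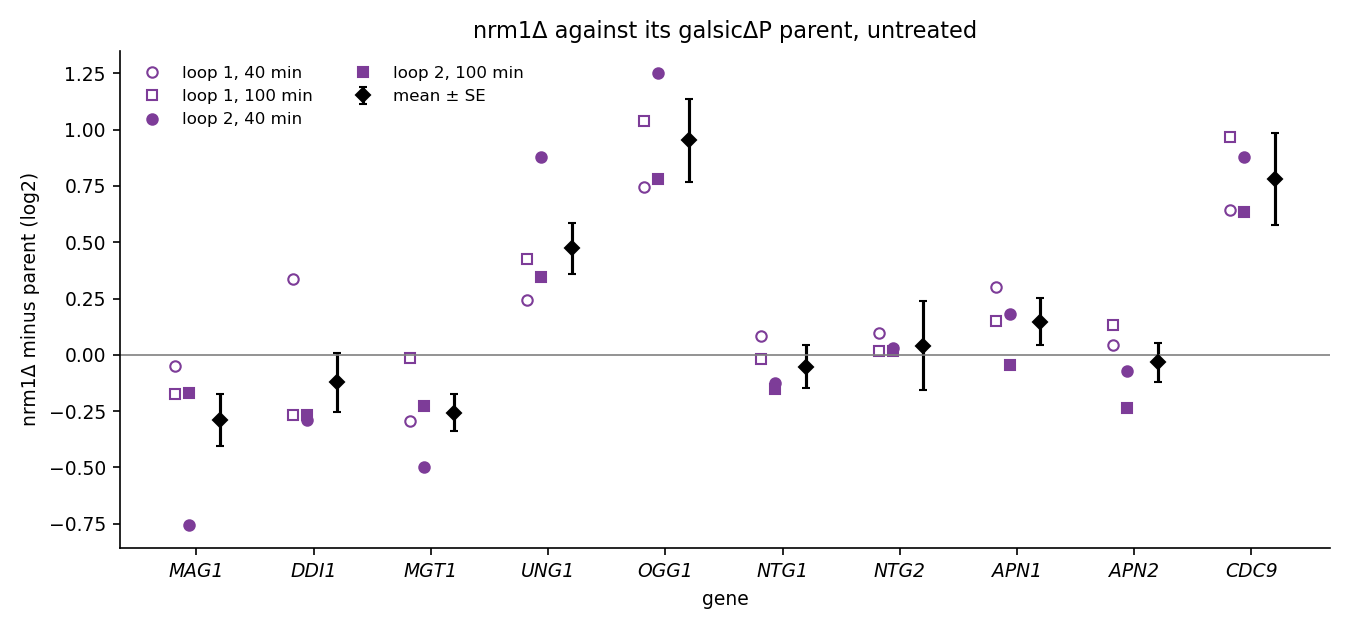
Difference between nrm1Δ cells and their galsicΔP parent (log2, y axis) for the 10 genes (x axis), with 1 point per loop and time and the mean ± 1 SE as a black diamond. OGG1, CDC9 and UNG1 have means of 0.95, 0.78 and 0.47, and all 4 points of each lie above 0.

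A list of 10 further genes held those of gap filling and flap removal, of the nucleotide pool and of the repair of DNA ends. It also held TPA1, which lies outside these classes. In MMS 7 of them rose in wild type and 3 fell, with a median of 0.34, against 28% of all features that rose and 30.2% that fell. RAD27, the flap endonuclease of long-patch repair, rose by 0.67 ± 0.13 (adjusted p = 7.3e-05), and the 3 subunit genes of DNA polymerase δ rose as well, POL31 by 0.45 ± 0.08, POL3 by 0.41 ± 0.16 and POL32 by 0.39 ± 0.10. TPP1, a 3' phosphatase of DNA ends, rose by 0.29 ± 0.08, HNT3, which removes adenylate from failed ligations, by 0.20 ± 0.07, and PCD1, which clears oxidised nucleotides, by 0.61 ± 0.15. Those that fell were TPA1 at -0.69 ± 0.09, POL4, the polymerase of end joining, at -0.35 ± 0.07, and DUT1, the dUTPase that keeps uracil out of DNA, at -0.33 ± 0.11.

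Of these 10 genes 3 rose and 1 fell in HU (RAD27, POL31 and POL32 higher, TPA1 lower), against 15.8% and 17.3% of features. In CPT 1 rose (PCD1, 0.58 ± 0.15) and 0 fell, against 2.48% and 3.54%. In rad53Δ 0 passed in MMS in limma, against 8.59% of features that rose and 4.78% that fell, and 2 had an unadjusted p under 0.05. In nrm1Δ 4 were higher than in the parent and 1 lower, against 14.5% and 17.2% of features, with RAD27 at 1.21 ± 0.18, POL32 at 0.57 ± 0.14, DUT1 at 0.48 ± 0.15, POL31 at 0.30 ± 0.11 and POL4 at -0.39 ± 0.09.

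The 10 genes were also compared by the likeness of their patterns over the 44 wild-type and rad53Δ extracts of the fitted blocks, as Pearson correlations of levels centred within each replicate and time. These values are a description, since the extracts share arrays, times and untreated cells. The 5 features most like DDI1 were the proteasome subunit genes RPN3, PRE5, PRE8, PRE2 and SCL1, with r from 0.977 to 0.982. Of 31 proteasome genes 31 rose in MMS in wild type (median 1.1), and 30 in rad53Δ (median 0.66). RPN4 encodes the activator of proteasome genes and is known to act at the MAG1 and DDI1 promoters. In MMS it rose by 0.48 ± 0.10 in rad53Δ (adjusted p = 0.0023) and by 0.74 ± 0.07 in wild type (adjusted p = 4e-09). In rad53Δ in HU RPN4 stood at -0.19 and -0.07 at 30 min and at 0.45 and 0.77 at 75 min. Over both times DDI1 averaged 0.004 ± 0.13 there, from 4 pairs between -0.37 and 0.26 of which 3 lay above 0. The proteasome median, also over both times, was -0.07. The part of RPN4 in these values was not tested.

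MAG1 was most like PHB2, GGA1, BOP2, RRT8 and LSB3, with r from 0.957 to 0.97. DDI1 came in place 66 for MAG1, at r = 0.917, and NTG1 stood at r = 0.886 with MAG1. CDC9 was most like POL12, SMC3, DPB2, SWI4 and EXO1 (r from 0.928 to 0.96), and UNG1 most like POL1, CTF18, POL12, CDC9 and IRR1 (r from 0.866 to 0.888). POL1, POL12 and SMC3 belong to the list of MBF targets. OGG1 had r = 0.819 with CDC9 and 0.762 with UNG1. NTG2 had correlations between -0.35 and 0.28 with the other 9 genes.

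Gene order was taken from the RefSeq genes of assembly R64, and coordinates are not given because the build behind the array is not stated. Besides the pair MAG1 and DDI1, 4 of the genes have a divergently transcribed nearest upstream neighbour, OGG1 with the helicase gene PIF1, CDC9 with the endocytosis gene ENT1, NTG2 with NGL1 and UNG1 with YML020W. ENT1 rose by 0.90 ± 0.08 in MMS (adjusted p = 2.7e-10), PIF1 stood at 0.12 ± 0.09 (adjusted p = 0.26), NGL1 at -0.15 ± 0.08 (adjusted p = 0.11) and YML020W at -0.17 ± 0.08 (adjusted p = 0.085). In nrm1Δ PIF1 was higher than in the parent by 0.58 ± 0.13 (adjusted p = 0.0015), as OGG1 was. PIF1 and OGG1 had r = 0.761 over the 44 extracts, ENT1 and CDC9 0.577, YML020W and UNG1 0.507 and NGL1 and NTG2 -0.02. The gene next upstream of APN1 is RAD27, transcribed in the same direction.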

How the data were processed

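The authors deposited log ratios for 61 two-colour arrays, and these deposited values were read here as log2 of Cy5 over Cy3. Per the submitters' processing notes limma was used, while how background was treated and arrays were normalised is not given in the sources. Neither the log base nor the direction is stated, and the low NRM1 values of nrm1Δ fit the direction taken. No intensities are given, so signal over background is unknown, and the number of arrays limits the precision. Of 6266 probes 5609 carried 1 gene symbol, 0 several and 657 none, and 16 genes with several probes were averaged, which gave 6249 features with 0 missing values.

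Array titles and source names gave the groups. On 2 wild-type arrays an MMS title at 0 min was overridden by the untreated source name, on 6 galsicΔP arrays the title was used over the genotype entry, and on 1 rad53Δ array the title's 30 min over the source name's 75 min. Arrays join the extracts in loops, with no common reference. Ratios were turned into relative levels of 56 extracts by least squares within each strain set with a dye term (MASS 7.3.60.0.1). Then 54 extracts entered a model of limma 3.58.1 (R 4.3.3) with group terms and 14 blocks of replicate and time (loop for galsicΔP), which is the replicate block, leaving 20 residual degrees of freedom. The blocks follow the hybridisations of replicate 2, where treated and untreated extracts of a time were joined on arrays. In replicate 1 arrays joined the times of each treatment in a loop through the 0 min extract. Its differences between treatments therefore run over several arrays. The times of a replicate count as separate samples, so SEs of means over times can be too small. Further tools were jsonlite 2.0.0 for labels, and for figures Python 3.11.15 and matplotlib 3.10.9.

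Alternatives left out the dye term, centred or scaled the arrays, fitted single arrays with or without a slide term, fitted strain sets alone, used robust variances, 1 value per replicate and treatment, or left out a replicate, the array with conflicting times, or the replicate 2 arrays at 30 min. All 10 genes are named, 10 further pathway genes are given by counts and by those that passed, and for 4 genes the 5 most alike features. The genes and lists were chosen with earlier results of these data known. The steps were tested on simulated data.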

Additional observations from a re-analysis of the deposited data

Results flagged for a closer look

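The response of MAG1 to MMS differed between rad53Δ and wild type by -0.92 ± 0.16 (limma adjusted p = 0.0011), and drew attention because the test of the difference itself passed. Its 4 differences were 0.13, 0.43, 0.31 and 0.65 in rad53Δ and 0.48, 1.90, 0.80 and 2.04 in wild type at 30 and 75 min.

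The MMS difference also changed with time in wild type for MAG1 (0.67 ± 0.16, adjusted p = 0.0053) and DDI1 (0.58 ± 0.19, adjusted p = 0.035), taken as 60 and 75 min minus 30 and 45 min. Without wild-type replicate 1 neither passed (MAG1 0.36, adjusted p = 0.4; DDI1 0.37, adjusted p = 0.35), and DDI1 did not pass in 4 of 10 other settings.

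MGT1 in HU lay below untreated cells in all 4 rad53Δ pairs and above them in all 4 wild-type pairs at the same times, a difference of -0.37 ± 0.12. Its test did not pass in limma (adjusted p = 0.088).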

How the results depend on the processing

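Of 62 calls for the 10 genes, recomputed 639 times over up to 16 settings, 538 kept direction and call, 99 lost the call and 2 reversed. Of 88 values not called, recomputed 961 times, 29 passed. Both reversals were CDC9 in MMS at 30 min, at -0.033 without wild-type replicate 2 (1.99 without replicate 1) or without its arrays at 30 min alone (chosen after seeing the data). Counts below are first of features and then of the 10 genes, where both moved by over 1.5 times. The cause of the changes was not tested.

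In fits to single arrays without the replicate block, the 7 genes in HU became 4, the 697 features in MMS at 30 min 1219, the 836 in rad53Δ in MMS 1612 and the 447 in rad53Δ in HU 1232. For rad53Δ minus wild type they gave 873 features and 2 genes in MMS (460 and 1) and 731 and 2 in HU (175 and 0). A slide term in such fits gave 3 genes in HU, 1200 features in MMS at 30 min, 1546 in rad53Δ in MMS, 38 in rad53Δ in HU, 807 and 2 genes for the strain difference in MMS, 48 for that in HU, and 1 gene in nrm1Δ. With arrays scaled to equal spread, genes called numbered 1 for later against earlier MMS (2), 2 in rad53Δ in MMS (4) and 0 in nrm1Δ (4), and features 142 and 94 for the strain differences in MMS and HU and 264 in nrm1Δ (1977).

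Strain sets fitted alone gave 59 features and 0 genes in CPT (376 and 1), 461 features in MMS at 30 min, 1 gene for later against earlier MMS, 2396 features in rad53Δ in MMS, and 2003 features and 3 genes in rad53Δ in HU. With 1 value per replicate and treatment the counts were 843 and 3 in HU (2067 and 7), 5 and 0 in CPT, 1229 and 3 for MMS against HU (2572 and 5), 2338 and 5 for MMS against CPT (3537 and 8), and 294 and 54 features for the strain differences in MMS and HU. Without the wild-type replicate 2 arrays at 30 min they were 4 genes in HU, 194 and 0 in CPT, 119 and 0 in MMS at 30 min, 1 gene for later against earlier MMS, and 236 and 81 features for the strain differences.

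Leaving out single replicates gave 4 to 7 genes in HU, 110 to 1976 features and 0 to 4 genes in CPT, and 414 to 1019 features and 1 to 4 genes in MMS at 30 min (697 and 3). It gave 1187 to 1615 features at 45 min (1799), 1391 to 2184 and 3 to 8 genes at 60 min (2317 and 9), and 542 to 1025 and 1 to 4 genes for later against earlier MMS (1076 and 2). In rad53Δ it gave 168 to 203 features and 1 gene in MMS and 34 to 43 features in HU. The strain differences had 45 to 631 features and 0 to 3 genes in MMS and 16 to 256 features in HU, and nrm1Δ had 1137 to 1281 features and 1 to 4 genes. The filter on missing values left out 0 features and so gave no separate value.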
